A study of Mus musculus with 217 samples.

Results

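*Cldn14* and *Smim3* are 2 of the 54532 genes counted in striatum and cortex of LacQ140 mice, a model of Huntington's disease in which transcription of the mutant huntingtin allele (m*Htt*) can be switched by the sugar analogue IPTG. Both genes were chosen by their difference between LacQ140 and WT + IPTG mice in the 12-month cortex, so that every value of that contrast, and of any other contrast between groups that sets the LacQ140 or WT + IPTG libraries of that tissue and age against another group, is given as a description with no test. The tests below use the other groups, tissue or age, and the sexes were compared over all groups. The 12-month striatum came from the same mice as the 12-month cortex, so its tests are not independent of the choice. The working name given to the pair, late cortical changes, did not describe *Cldn14*. It was already higher in LacQ140 than in WT + IPTG mice at 6 months in both tissues. Nor was the *Smim3* difference limited to cortex, since at 12 months *Smim3* was lower in LacQ140 than in WT + IPTG mice in striatum as well. In the 6-month striatum *Smim3* was also lower in that comparison. There, however, it was called higher in WT + IPTG than in untreated WT mice, and LacQ140 mice stood near untreated WT mice.

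*Cldn14* encodes claudin-14, a membrane protein of tight junctions, the seals between neighbouring cells that limit passage of ions and solutes. It is best known from the inner ear, where its loss causes deafness, and from the kidney, where it limits calcium reabsorption. In brain the claudins usually discussed are claudin-5 of the endothelium and claudin-11 of myelin. *Smim3* encodes a small protein with a single membrane-spanning segment, and its role in brain is not well defined. On the GRCm38 build with GENCODE vM21, *Cldn14* (ENSMUSG00000047109) spans 93919031 to 94008837 on the minus strand of chromosome 16, with 6 annotated transcripts, the longest of 1457 nucleotides. *Smim3* (ENSMUSG00000038059) spans 60474191 to 60501987 on the minus strand of chromosome 18, with 2 transcripts, the longer of 5022 nucleotides. A gene annotated as sense-intronic, *Gm49618* (chromosome 16, 93981444 to 93982588), lies inside the *Cldn14* span on the same strand. How reads there were assigned is not known from the sources used here.

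The measurements come from RNA-Seq of 107 striatal and 110 cortical libraries, 217 in all, from 110 mice. All mice were C57BL/6 and carried a transgene with the β-actin promoter that makes a lac repressor in every tissue. WT mice had no LacO-140Q allele and were left untreated (WT) or given IPTG from embryonic day 5 onward (WT + IPTG). Carriers were heterozygous for the LacO-140Q knock-in, an *Htt* allele with an expanded CAG repeat and lac operators in its promoter. LacQ140 mice received IPTG throughout and expressed m*Htt*, LacQ140_A mice never received IPTG, so that the allele was repressed from conception, and in LacQ140_2M and LacQ140_8M mice IPTG was withdrawn at 2 or 8 months. The paper describes the lowering as moderate, so that repression was partial. LacQ140_8M mice were sequenced only at 12 months. There were 10 mice per group, with equal numbers of females and males (5 each). In striatum at 12 months 1 female was lacking from WT, from LacQ140 and from LacQ140_8M, which left 9 mice each. The 6-month libraries formed one labelled batch and the 12-month libraries the other, so that batch and age cannot be told apart, and every test was made within one age.

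Libraries held between 33292014 and 68038785 counts, with a median of 43867505. The ratio of striatal to cortical marker genes placed every library with its labelled tissue, and no library went against its sex label. *Htt*, whose counts do not separate the mutant from the normal allele, had its 2 highest group means in the WT groups in each tissue and age. In the 6-month cortex the means were 123.3 CPM (TMM-scaled counts per 1000000 counts) in WT and 120.2 CPM in WT + IPTG mice, against 93.7 CPM in LacQ140, 81.5 CPM in LacQ140_A and 76.9 CPM in LacQ140_2M mice. In the 12-month cortex every *Htt* mean was below those of the other tissues and ages, from 28.1 CPM in WT to 17.0 CPM in LacQ140_A mice. The longest *Htt* transcript has 13215 nucleotides, and how counts depended on transcript length in that set is described further on. All values below are TMM-scaled CPM, given as mean ± SD over mice with n = 10 unless stated. Calls come from edgeR's quasi-likelihood test, with Benjamini-Hochberg adjustment over all genes tested, and needed an adjusted p under 0.05 together with a fold change of 1.2 or more in either direction.

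*Cldn14* was a low-abundance transcript, with a higher mean in every carrier group than in either WT group, in both tissues and at both ages. In the 12-month cortex its level in WT mice was 1.36 ± 0.433 CPM, with a lowest, median and highest library of 0.690, 1.43 and 2.03 CPM, from 28 to 70 reads. LacQ140_A mice had 2.57 ± 0.549 CPM (1.53, 2.67 and 3.52 CPM). LacQ140_2M mice had 3.004 ± 1.163 CPM (1.43, 2.77 and 4.98 CPM). The carriers stood above the WT mice with some overlap, since 9 of 10 LacQ140_A and 9 of 10 LacQ140_2M libraries exceeded every WT library. The rise passed the test in LacQ140_A mice, in which m*Htt* had been repressed from conception (log2 fold change 0.93, SE 0.187, edgeR adjusted p = 0.0244), where 0.0174% of the 34493 genes tested were called. It passed as well in LacQ140_2M mice (log2 fold change 1.14, SE 0.184, edgeR adjusted p = 2.02e-04), where 0.0899% of genes were called, and this call was lost when only these 2 groups were fitted (edgeR adjusted p = 0.105).

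With IPTG withdrawn only at 8 months the mean was in between. LacQ140_8M mice had 2.31 ± 0.701 CPM in the 12-month cortex (1.16, 2.28 and 3.37 CPM), and 7 of 10 libraries exceeded every WT library. The difference from WT did not pass the test (log2 fold change 0.77, SE 0.188, edgeR adjusted p = 0.0917), where 0.0377% of genes were called. Against LacQ140_A mice the LacQ140_8M value was -0.16 on the log2 scale (SE 0.173, edgeR adjusted p = 0.743), where 0.0203% of genes were called, and it lay between -0.22 without LacQ140_8M F3 and -0.07 without LacQ140_8M F5. With the length slope of each library, described further on, in the fit it changed sign, to 0.09 (SE 0.139, edgeR adjusted p = 0.97). The call for LacQ140_A against WT was lost in 8 of 40 fits with a single library removed, those without LacQ140_A F4, F5, M3 or M5 or WT F3, M1, M3 or M4, with adjusted p between 0.0525 and 0.0856 and log2 fold changes that stayed between 0.85 and 1.0 over all 40 fits. Without LacQ140_8M F5 the LacQ140_8M difference from WT was called, at a log2 fold change of 0.86 (edgeR adjusted p = 0.043).

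The groups that chose the gene were among the lowest and the highest. In the 12-month cortex, WT + IPTG mice had 1.02 ± 0.230 CPM (0.554, 1.13 and 1.26 CPM, 20 to 47 reads). LacQ140 mice had 2.89 ± 0.643 CPM (1.93, 2.98 and 3.96 CPM, 75 to 145 reads). All 10 LacQ140 libraries lay above all 10 WT + IPTG libraries, a difference of 1.49 on the log2 scale (SE 0.192) that the choice of the gene had fixed, in a contrast in which 0.0899% of genes were called. Of 8 astrocyte markers 2 were called lower in that contrast (2497 to 2967 CPM summed in LacQ140 against 2414 to 3708 CPM in WT + IPTG mice), and of 5 blood markers none was called by edgeR or DESeq2 and 5 stood at an unadjusted p under 0.05 in edgeR (299.3 to 2089 CPM against 851.5 to 7020 CPM). The part of these markers in the *Cldn14* and *Smim3* values was not tested. The order of the group means from lowest to highest was WT + IPTG, WT, LacQ140_8M, LacQ140_A, LacQ140 and LacQ140_2M, and the only neighbours separated by more than the larger of their SDs were WT and LacQ140_8M. Over both WT groups and all carriers, 34 of 40 carrier libraries exceeded the highest WT value of 2.03 CPM.

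**Figure D1:**
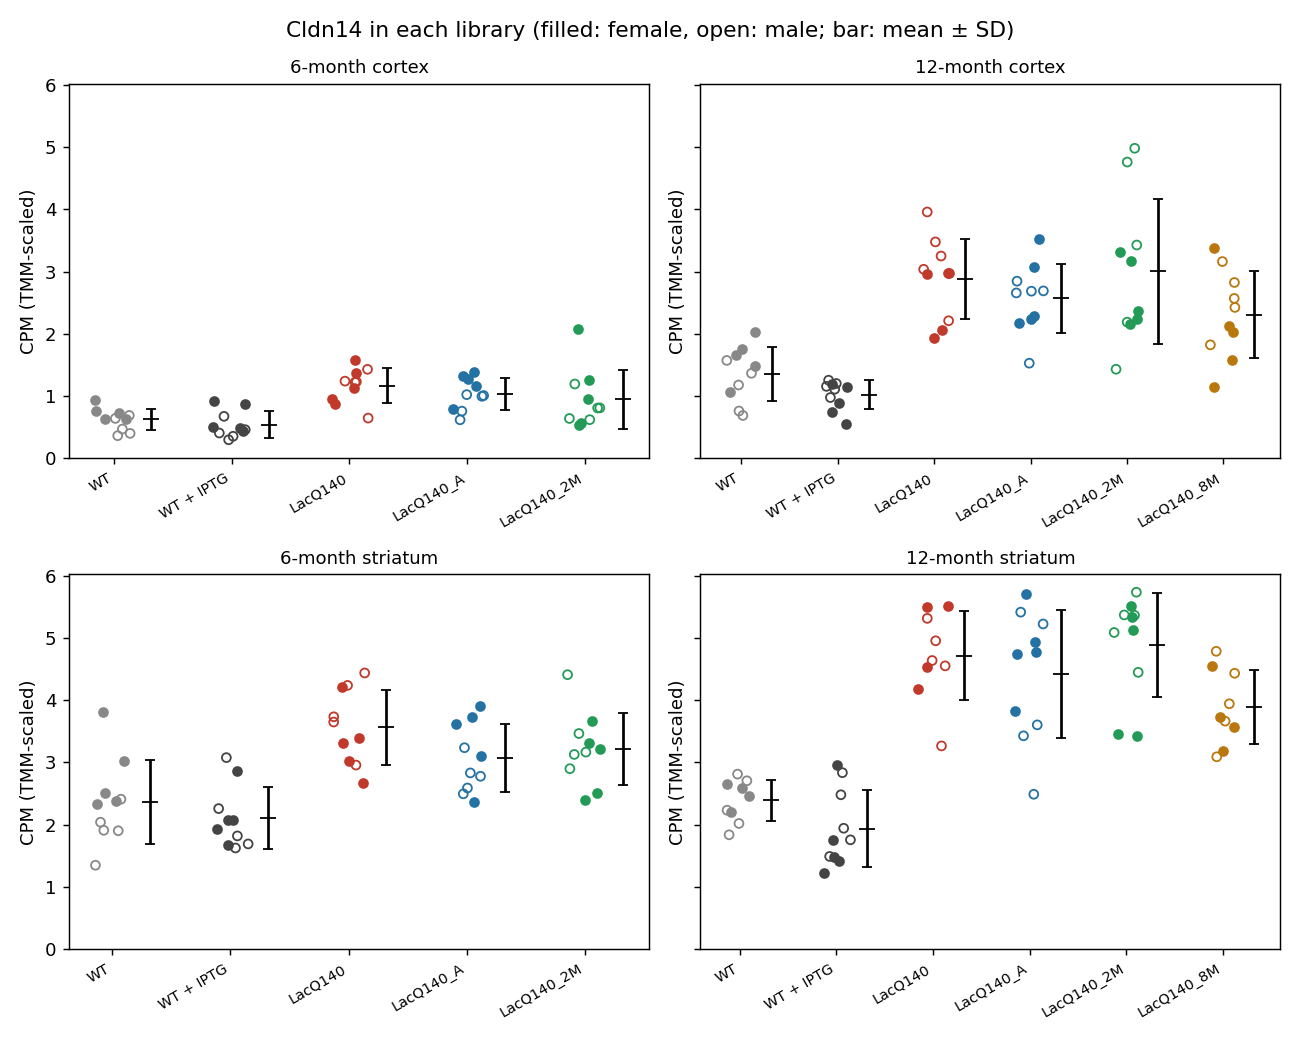
*Cldn14* level in CPM (TMM-scaled, y axis) in every library, by group, for cortex and striatum at 6 and 12 months. Filled points are females, open points males, and the bar beside each group is mean ± SD. The carrier means sit above the WT and WT + IPTG means in all 4 panels, with 34 of 40 carrier libraries above every WT library in the 12-month cortex and 37 of 38 in the 12-month striatum. The 12-month cortex count includes the LacQ140 and WT + IPTG libraries whose difference chose the gene.

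At 6 months *Cldn14* was less abundant in cortex and the carrier groups were already higher. WT mice had 0.627 ± 0.173 CPM (0.366, 0.640 and 0.936 CPM, 17 to 50 reads). WT + IPTG mice had 0.544 ± 0.211 CPM (0.300, 0.474 and 0.915 CPM, 14 to 47 reads), and LacQ140 mice had 1.17 ± 0.279 CPM (0.648, 1.23 and 1.58 CPM, 35 to 73 reads). In LacQ140 mice 8 of 10 libraries exceeded every WT + IPTG library. The rise in LacQ140 over WT + IPTG mice, in libraries that did not enter the choice, was called (log2 fold change 1.09, SE 0.209, edgeR adjusted p = 0.00277), where 0.881% of 35987 genes were called. In bulk tissue a change in the number of cells that make a transcript and a change in the RNA made per cell cannot be told apart. In the same comparison 2 of 8 endothelial markers (372.1 ± 23.97 CPM summed in LacQ140 against 415.2 ± 27.5 CPM in WT + IPTG mice) and 2 of 6 pericyte markers (210.0 to 276.7 CPM against 235.8 to 296.9 CPM) were called lower. So were 1 of 5 markers of oligodendrocyte precursors (124.2 to 157.1 CPM against 133.3 to 164.6 CPM) and 1 of 7 thalamus markers (103.0 to 143.4 CPM against 118.5 to 134.5 CPM), and their part in the *Cldn14* result was not tested. LacQ140_A mice had 1.04 ± 0.258 CPM and LacQ140_2M mice 0.948 ± 0.468 CPM, and 19 of the 30 carrier libraries exceeded every WT library. LacQ140_A against WT, a comparison added after the levels were seen, gave 0.72 (SE 0.204) on the log2 scale and did not pass (edgeR adjusted p = 0.0896), where 0.425% of genes were called.

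In striatum the level was higher, and the WT groups again had the lowest 2 means. At 6 months WT mice had 2.37 ± 0.676 CPM (1.35, 2.36 and 3.81 CPM), WT + IPTG mice 2.11 ± 0.498 CPM (1.63, 2.01 and 3.08 CPM) and LacQ140 mice 3.56 ± 0.598 CPM (2.68, 3.52 and 4.44 CPM). The groups overlapped in part, and only 5 of 30 carrier libraries exceeded the highest WT library. LacQ140 against WT + IPTG was called (log2 fold change 0.75, SE 0.127, edgeR adjusted p = 1.58e-05), where 7.93% of 35808 genes were called. LacQ140_A mice (3.07 ± 0.546 CPM) were 0.38 higher than WT on the log2 scale (SE 0.129), which did not pass (edgeR adjusted p = 0.142, added comparison), where 0.91% of genes were called. LacQ140_2M mice had 3.22 ± 0.577 CPM.

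The 12-month striatum, taken from the same mice as the 12-month cortex, had the least overlap of carrier with WT libraries, 1 of 38 carrier libraries lying within the WT range. WT mice had 2.39 ± 0.334 CPM (n = 9, 1.84, 2.46 and 2.81 CPM) and WT + IPTG mice 1.93 ± 0.616 CPM (1.23, 1.75 and 2.97 CPM). LacQ140 mice had 4.72 ± 0.719 CPM (n = 9, 3.27, 4.64 and 5.52 CPM), LacQ140_A mice 4.42 ± 1.03 CPM (2.49, 4.76 and 5.70 CPM) and LacQ140_2M mice 4.89 ± 0.834 CPM (3.42, 5.23 and 5.74 CPM). LacQ140_8M mice had 3.89 ± 0.596 CPM (n = 9, 3.09, 3.73 and 4.79 CPM). No LacQ140, LacQ140_2M or LacQ140_8M library reached down to any WT or WT + IPTG library, and 1 LacQ140_A library did. LacQ140 against WT + IPTG was called (log2 fold change 1.30, SE 0.133, edgeR adjusted p = 4.46e-12), where 9.44% of 35386 genes were called, and so was the added comparison of LacQ140_A with WT (log2 fold change 0.88, SE 0.133, edgeR adjusted p = 1.58e-06), where 3.15% of genes were called. Of 8 markers of striatal projection neurons, 7 were called lower in LacQ140 than in WT + IPTG mice at both ages, and their summed level ranged from 3713 to 4551 CPM in LacQ140 against 6056 to 9128 CPM in WT + IPTG mice at 12 months, and from 4340 to 5440 CPM against 5095 to 7688 CPM at 6 months. In LacQ140_A against WT mice at 12 months 7 of 8 were called lower too, from 4643 to 5910 CPM against 7203 to 8405 CPM. None of the 8 was at 0 in any group, and their part in the *Cldn14* result was not tested.

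No tested comparison of LacQ140_A, LacQ140_2M or LacQ140_8M with LacQ140 mice had a called change of *Cldn14*. LacQ140_A minus LacQ140 was -0.17 (SE 0.187, edgeR adjusted p = 0.859) on the log2 scale in the 6-month cortex, -0.22 (SE 0.123, edgeR adjusted p = 0.488) in the 6-month striatum and -0.10 (SE 0.121, edgeR adjusted p = 0.803) in the 12-month striatum. The share of genes called in these comparisons was 0.00834%, 1.88% and 0.91%. LacQ140_2M minus LacQ140 was -0.35 (SE 0.192, edgeR adjusted p = 0.569), -0.15 (SE 0.121, edgeR adjusted p = 0.71) and 0.05 (SE 0.12, edgeR adjusted p = 1), where 0%, 1.26% and 0.608% of genes were called. For the 6-month cortex the 0 genes called for LacQ140_2M stood against 3498 genes at an unadjusted p under 0.05 in edgeR and 7 genes called by DESeq2. Without LacQ140_2M F2, whose 2.08 CPM was the highest of its group, the value of the 6-month cortex was -0.53 (edgeR adjusted p = 0.26). LacQ140_8M minus LacQ140 was -0.28 (SE 0.126, edgeR adjusted p = 0.864) in the 12-month striatum, where 0.00565% of genes were called. In the 12-month cortex, where no test was made, the 3 differences from LacQ140 were -0.17 (SE 0.17), 0.04 (SE 0.167) and -0.32 (SE 0.171) for LacQ140_A, LacQ140_2M and LacQ140_8M mice. With the length slope of each library, described further on, in the fit they were -0.44, -0.17 and -0.36, so that the first was over 1.5 times as large and the second changed sign. These comparisons share the LacQ140 libraries of their tissue and age. *Htt*, whose counts do not separate the alleles, was not called in any of the tested ones. The *Htt* values of LacQ140_A minus LacQ140 were -0.20 and -0.21 in the 6-month cortex and striatum and -0.25 in the 12-month striatum. Those of LacQ140_2M minus LacQ140 were -0.29, -0.20 and -0.15. In the 12-month striatum *Htt* stood at 110.9 CPM in LacQ140_8M and 111.0 CPM in LacQ140 mice.

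WT mice given IPTG, which have no allele for it to release, had a lower *Cldn14* mean than untreated WT mice in every tissue and age, and no tested difference passed. The log2 differences from WT were -0.19 (SE 0.229, edgeR adjusted p = 0.767) in the 6-month cortex, -0.15 (SE 0.133, edgeR adjusted p = 0.817) in the 6-month striatum and -0.32 (SE 0.146, edgeR adjusted p = 0.374) in the 12-month striatum. The share of genes called was 0.609%, 0.584% and 0.218%. The WT + IPTG libraries are shared with the LacQ140 comparisons above. The untested value in the 12-month cortex was -0.40 (SE 0.211), so that the WT + IPTG mice used as the reference for LacQ140 lay below untreated WT mice there.

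*Smim3* was more abundant and followed a different order of groups at each age. In the 12-month cortex WT mice had 41.7 ± 11.02 CPM (30.2, 38.4 and 66.0 CPM) and LacQ140_A mice 42.4 ± 9.10 CPM (28.2, 41.6 and 59.9 CPM), and the 2 groups overlapped throughout. LacQ140_2M mice had 35.7 ± 9.21 CPM (25.1, 33.97 and 48.8 CPM) and LacQ140_8M mice 30.4 ± 7.48 CPM (18.5, 27.9 and 40.9 CPM). Differences from WT were 0.02 (SE 0.132, edgeR adjusted p = 1) in LacQ140_A, -0.22 (SE 0.132, edgeR adjusted p = 1) in LacQ140_2M and -0.45 (SE 0.132, edgeR adjusted p = 0.22) in LacQ140_8M mice on the log2 scale, and none passed. LacQ140_8M minus LacQ140_A was -0.48 (SE 0.132), which did not pass with all libraries (edgeR adjusted p = 0.0907) and was called without LacQ140_8M F3 (-0.53, edgeR adjusted p = 0.028) or without LacQ140_A M2 (-0.51, edgeR adjusted p = 0.0449). With the length slope in the fit it was -0.28 (SE 0.089, edgeR adjusted p = 0.157).

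The groups that chose *Smim3* had 42.5 ± 6.80 CPM in WT + IPTG (32.5, 41.7 and 52.9 CPM) and 25.4 ± 4.64 CPM in LacQ140 mice (16.5, 25.8 and 31.7 CPM) in the 12-month cortex. All 10 LacQ140 libraries lay below all 10 WT + IPTG libraries, a difference of -0.74 on the log2 scale (SE 0.133). From lowest to highest the group means ran LacQ140, LacQ140_8M, LacQ140_2M, WT, LacQ140_A and WT + IPTG, so that among carriers the mean was lower the longer IPTG had been given, and no 2 neighbours were separated by more than the larger of their SDs. Over all groups, 20 of 40 carrier libraries lay below every WT library. Untested differences from LacQ140 were 0.74 (SE 0.133) in LacQ140_A, 0.49 in LacQ140_2M and 0.26 in LacQ140_8M mice, and WT + IPTG minus WT was 0.03 (SE 0.132).

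**Figure D2:**
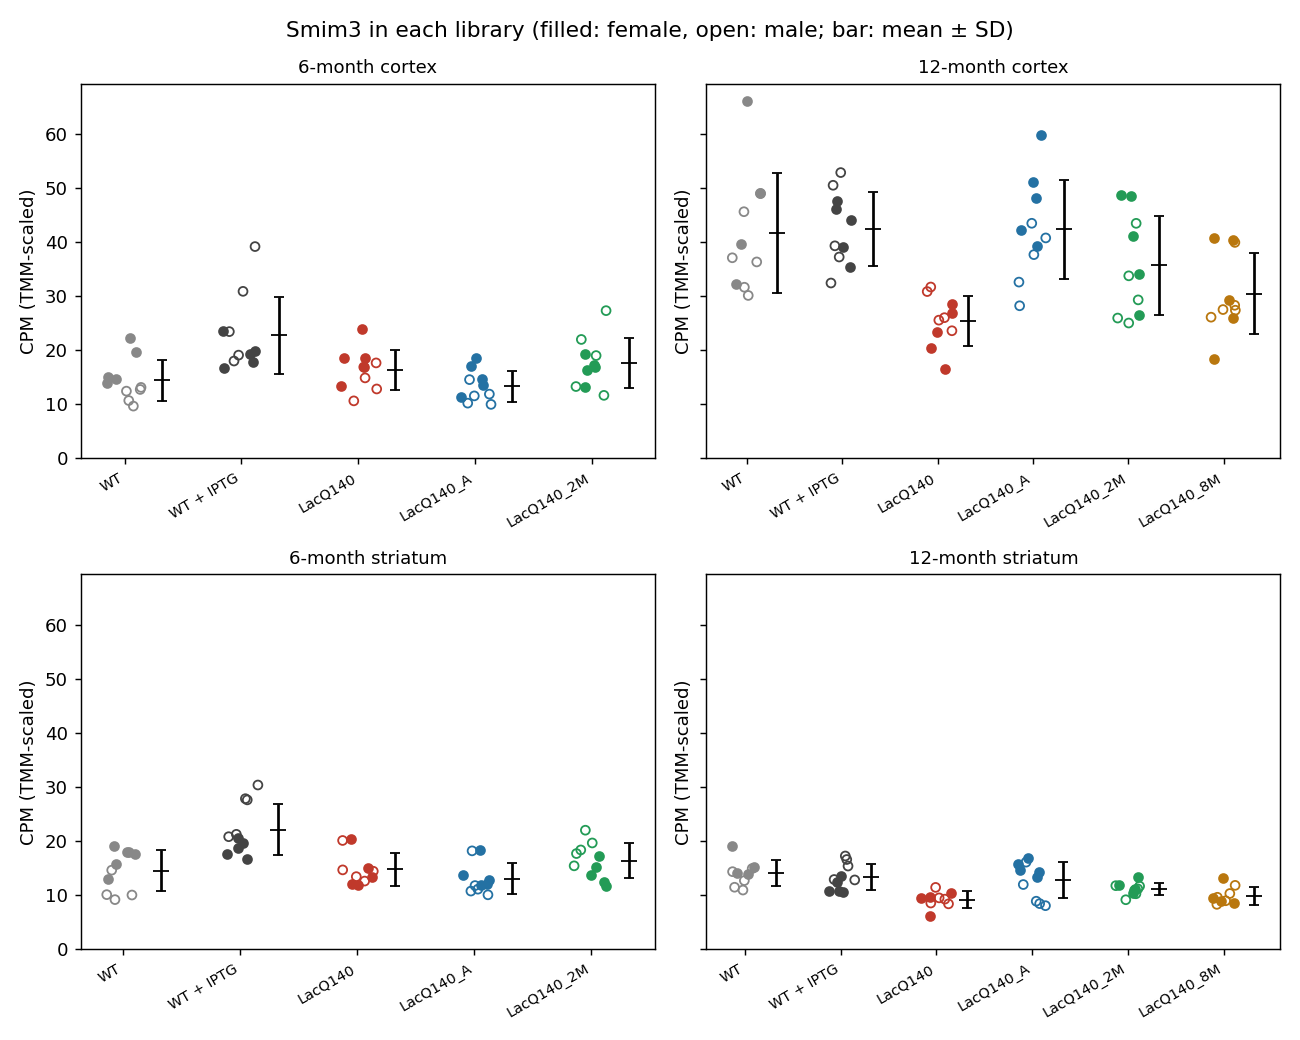
*Smim3* level in CPM (TMM-scaled, y axis) in every library, by group, for cortex and striatum at 6 and 12 months. Filled points are females, open points males, and the bar beside each group is mean ± SD. At 12 months LacQ140 has the lowest mean in both tissues (25.4 and 9.19 CPM), and at 6 months WT + IPTG the highest (22.8 and 22.1 CPM). The difference between LacQ140 and WT + IPTG in the 12-month cortex chose the gene.

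In the 12-month striatum, at a lower level, the lowest 3 groups came in the same order. LacQ140 mice had 9.19 ± 1.497 CPM (n = 9, 6.05, 9.48 and 11.4 CPM), LacQ140_8M 9.89 ± 1.63 CPM (n = 9, 8.30, 9.45 and 13.2 CPM) and LacQ140_2M mice 11.2 ± 1.12 CPM (9.15, 11.1 and 13.3 CPM). LacQ140_A mice had 12.8 ± 3.34 CPM (8.05, 13.8 and 16.9 CPM), WT + IPTG mice 13.3 ± 2.41 CPM (10.5, 12.9 and 17.2 CPM) and WT mice 14.1 ± 2.40 CPM (n = 9, 10.9, 14.2 and 19.1 CPM). Among carriers 21 of 38 libraries lay below every WT library, and 8 of 9 LacQ140 libraries lay below every WT + IPTG library. LacQ140 against WT + IPTG was called (log2 fold change -0.53, SE 0.114, edgeR adjusted p = 3.16e-04), where 9.44% of all genes were called. These libraries came from the mice whose cortex chose the gene, so this test is not independent of the choice. Between cortex and striatum of one mouse *Smim3* correlated by 0.49 at 12 months with group means removed. In the LacQ140 against WT + IPTG comparison all 5 blood markers were called lower, with a summed level from 107.1 to 454.7 CPM in LacQ140 against 276.3 to 1962 CPM in WT + IPTG mice. So were 3 of 8 astrocyte markers (3385 to 3931 CPM against 4066 to 4937 CPM), and, as given further on, 4 of 8 endothelial, 3 of 6 pericyte and 3 of 8 choroid plexus markers. None was at 0 in any group, and their part in the *Smim3* result was not tested. LacQ140_A minus LacQ140 was called as well, at 0.48 (SE 0.114, edgeR adjusted p = 0.0113), or 1.40-fold, where 0.91% of all genes were called. LacQ140_A minus WT was -0.13 (SE 0.112, edgeR adjusted p = 0.689), where 3.15% of all genes were called. The summed striatal projection markers did not overlap between LacQ140_A and LacQ140 mice, from 4643 to 5910 CPM in LacQ140_A against 3713 to 4551 CPM in LacQ140 mice. Thalamus markers ranged from 75.8 to 334.2 CPM against 82.1 to 99.7 CPM, and the part of either list in the call for LacQ140_A over LacQ140 was not tested. The call for LacQ140_A over LacQ140 was lost when only these 2 groups were fitted (edgeR adjusted p = 0.0737). Later withdrawal gave 0.28 (SE 0.115, edgeR adjusted p = 0.401) in LacQ140_2M and 0.10 (SE 0.119, edgeR adjusted p = 0.864) in LacQ140_8M mice, neither of which passed.

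At 6 months the group that stood out was WT + IPTG. In cortex WT mice had 14.4 ± 3.86 CPM (9.68, 13.6 and 22.3 CPM) and WT + IPTG mice 22.8 ± 7.10 CPM (16.8, 19.5 and 39.2 CPM), with 4 of 10 WT + IPTG libraries above every WT library. Among these, WT + IPTG males had 26.1 ± 8.88 CPM and females 19.4 ± 2.57 CPM, against 11.75 ± 1.48 CPM and 17.1 ± 3.64 CPM in WT mice (n = 5 each), and whether the IPTG effect differed by sex was not tested. The rise with IPTG was called, at 0.66 (SE 0.148, edgeR adjusted p = 0.0181), or 1.58-fold. In striatum WT mice had 14.5 ± 3.74 CPM (9.17, 15.2 and 19.1 CPM) and WT + IPTG mice 22.1 ± 4.73 CPM (16.8, 20.7 and 30.4 CPM), with 7 of 10 above every WT library, and the rise was called at 0.61 (SE 0.126, edgeR adjusted p = 0.00637), or 1.52-fold. In the 12-month striatum the same comparison gave -0.08 (SE 0.112, edgeR adjusted p = 0.827). Whether the IPTG effect differed between the ages was not tested, since the ages were in separate batches. Markers of thalamus moved with IPTG in the 6-month striatum, where 3 of 7 were called higher and the summed level ranged from 87.9 to 381.1 CPM in WT + IPTG against 81.3 to 163.7 CPM in WT mice. Of all genes 0.584% were called in that comparison. Of 8 choroid plexus markers 1 was called higher there (276.4 to 1096 CPM against 214.8 to 327.7 CPM), and 1 marker each of astrocytes, oligodendrocytes, endothelium and pituitary was called higher. In the 6-month cortex edgeR called 0 and DESeq2 1 of the choroid plexus markers, 7 of 8 stood at an unadjusted p under 0.05 in edgeR, and their summed level ranged from 193.8 to 2727 CPM in WT + IPTG against 185.7 to 415.7 CPM in WT mice, with medians of 217.2 and 214.0 CPM. Of the cortical markers at 6 months 2 of 8 astrocyte, 1 of 8 endothelial and 1 of 8 oligodendrocyte markers were called lower with IPTG, where 0.609% of all genes were called. None of these markers was at 0 in any group, and their part in the *Smim3* result was not tested.

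Because WT + IPTG was raised, the 6-month values of LacQ140 mice read differently against the 2 controls. In cortex LacQ140 mice had 16.4 ± 3.71 CPM (10.7, 16.9 and 23.9 CPM), between the WT and WT + IPTG means, and the difference from WT + IPTG did not pass (log2 fold change -0.47, SE 0.148, edgeR adjusted p = 0.111). In striatum LacQ140 mice had 14.8 ± 3.08 CPM (11.9, 13.9 and 20.4 CPM), near the WT mean, and the difference from WT + IPTG was called (log2 fold change -0.58, SE 0.125, edgeR adjusted p = 6.40e-04), where 7.93% of all genes were called. In the latter comparison 6 of 7 thalamus markers were called lower, from 82.6 to 139.2 CPM summed in LacQ140 mice, as were 4 of 8 microglia markers (542.3 to 661.5 CPM against 630.4 to 739.1 CPM in WT + IPTG mice) and 3 of 8 choroid plexus markers (264.2 ± 44.98 CPM against 382.6 ± 251.4 CPM). Their part was not tested. The untreated LacQ140_A mice had 13.4 ± 2.89 CPM in cortex (10.0, 12.8 and 18.6 CPM) and 13.1 ± 2.92 CPM in striatum (10.1, 12.0 and 18.3 CPM), -0.11 (SE 0.149, edgeR adjusted p = 0.799) and -0.15 (SE 0.128, edgeR adjusted p = 0.678) from untreated WT mice on the log2 scale. LacQ140_2M mice had 17.6 ± 4.66 CPM in cortex and 16.4 ± 3.24 CPM in striatum. LacQ140_A minus LacQ140 was -0.30 (SE 0.149, edgeR adjusted p = 0.669) in cortex and -0.18 (SE 0.127, edgeR adjusted p = 0.645) in striatum, the opposite sign to 12 months, and LacQ140_2M minus LacQ140 was 0.10 (SE 0.148, edgeR adjusted p = 0.85) and 0.14 (SE 0.126, edgeR adjusted p = 0.74).

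**Figure D3:**
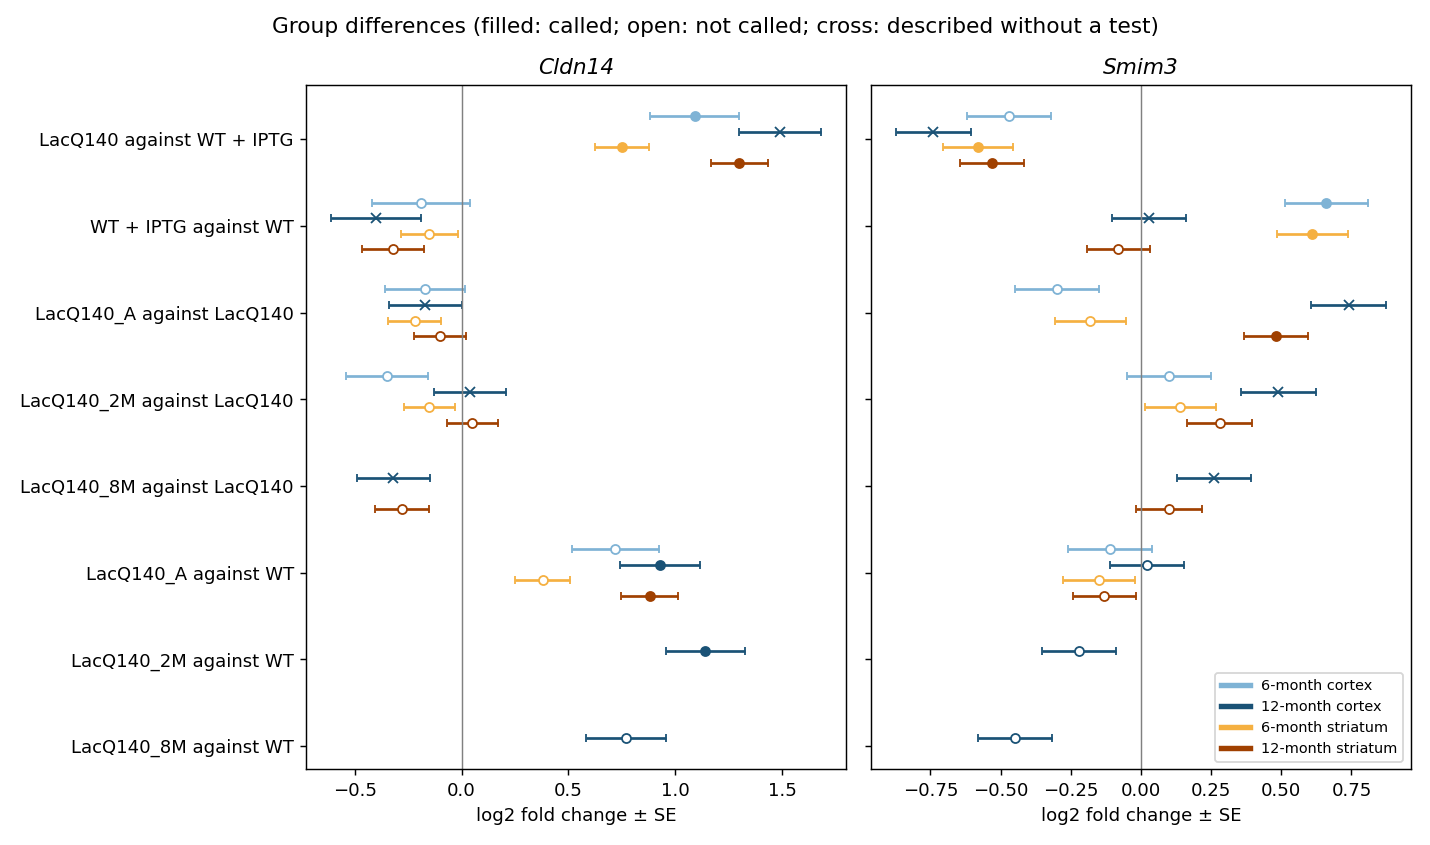
Log2 fold change with SE (x axis) of *Cldn14* and *Smim3* in each comparison, by tissue and age, from edgeR. Filled points were called, open points were not, and crosses mark comparisons of the 12-month cortex described without a test. *Cldn14* lies to the right of 0 for LacQ140 against WT + IPTG in each tested set (0.75 to 1.30) and *Smim3* to the left (-0.47 to -0.58). In the 12-month cortex, the contrast that chose both genes, they lie at 1.49 and -0.74.

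The effect of IPTG in carriers, LacQ140 minus LacQ140_A, holds release of the m*Htt* allele together with IPTG itself, and the difference between that effect and the IPTG effect in WT mice was tested as an added comparison. For *Cldn14* it was 0.36 (SE 0.296, edgeR adjusted p = 0.916) in the 6-month cortex, 0.37 (SE 0.181, edgeR adjusted p = 0.485) in the 6-month striatum and 0.42 (SE 0.19, edgeR adjusted p = 0.42) in the 12-month striatum. For *Smim3* it was -0.36 (SE 0.21, edgeR adjusted p = 0.829), -0.43 (SE 0.179, edgeR adjusted p = 0.355) and -0.40 (SE 0.16, edgeR adjusted p = 0.32). For each gene the sign was the same in these 3 sets and no value passed, where 0%, 0.542% and 0.777% of genes were called. The 0 genes of the 6-month cortex stood against 2235 at an unadjusted p under 0.05 in edgeR and 0 called by DESeq2.

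*Cldn14* was higher in striatum at both ages, and *Smim3* was lower there at 12 months, although the 12-month calls depended on the fit. *Cldn14* was 3.61-fold higher in striatum than in cortex of 6-month WT mice (log2 fold change 1.85, SE 0.122, edgeR adjusted p = 3.49e-10, paired by mouse), where 31.4% of genes were called. At 12 months it was 1.65-fold higher (log2 fold change 0.73, SE 0.133, edgeR adjusted p = 7.41e-05) over the 9 WT mice with both tissues, where 51.1% of genes were called. *Smim3* did not pass between the tissues at 6 months (log2 fold change -0.04, SE 0.085, edgeR adjusted p = 0.737) and was 3.26-fold lower in striatum at 12 months (log2 fold change -1.70, SE 0.091, edgeR adjusted p = 9.62e-13). Both 12-month tissue calls were lost when the length slope of each library, described further on, entered the fit (*Cldn14* 1.16, edgeR adjusted p = 0.362, and *Smim3* -0.59, edgeR adjusted p = 0.304). At 6 months the LacQ140 effect was not shown to differ between the tissues, at -0.36 (SE 0.192, edgeR adjusted p = 0.629) for *Cldn14* and -0.14 (SE 0.118, edgeR adjusted p = 0.947) for *Smim3*, striatum minus cortex, where 1.03% of genes were called. The IPTG effect differed by 0.08 (SE 0.21, edgeR adjusted p = 1) and 0.00 (SE 0.118, edgeR adjusted p = 1), where 0.0491% of genes were called.

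Males and females did not differ past the test in either gene. In the 6-month cortex *Cldn14* was higher in females in 5 of 5 groups, with 0.738 ± 0.123 CPM in females and 0.515 ± 0.145 CPM in males among WT mice (n = 5 each), and the male minus female difference was -0.35 (SE 0.121, edgeR adjusted p = 0.207), where 0.192% of genes were called. The other differences were 0.14 (SE 0.104, edgeR adjusted p = 0.844) in the 12-month cortex, -0.07 (SE 0.08, edgeR adjusted p = 0.766) in the 6-month striatum and 0.00 (SE 0.074, edgeR adjusted p = 0.995) in the 12-month striatum, where 0.154%, 0.279% and 0.218% of genes were called. For *Smim3* the 4 differences lay between -0.16 and 0.07, with adjusted p from 0.666 to 0.844 in edgeR.

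For LacQ140 against WT + IPTG in striatum *Cldn11* was called lower and *Cldn20* higher at both ages. Per kilobase of the longest transcript *Cldn14* ranked the fifth among the claudins in WT mice in each tissue and age, and *Cldn11*, *Cldn5* and *Cldn10* were the highest 3. For LacQ140 against WT + IPTG in the 6-month cortex, edgeR called 0 of 20 other claudins (3 at an unadjusted p under 0.05, 0 called by DESeq2), with a median log2 fold change of -0.004 against 0.00 over all genes, where 0.881% of all genes were called. *Cldn5* stood at 51.04 ± 9.51 CPM in LacQ140 mice there and at 54.1 ± 7.84 CPM in WT + IPTG mice, *Cldn11* 77.5 ± 9.70 CPM and 86.5 ± 6.40 CPM, and *Cldn12* 36.5 ± 2.41 CPM and 36.7 ± 2.45 CPM. In the 6-month striatum 2 of 19 were called higher and 2 lower (median -0.195), where 7.93% of all genes were called. *Cldn11* fell from 217.9 ± 15.9 CPM to 170.1 ± 18.2 CPM (log2 fold change -0.36, edgeR adjusted p = 7.56e-05) and *Cldn10*, a claudin that forms ion pores, fell from 58.4 ± 8.47 CPM to 45.5 ± 4.12 CPM (-0.36, edgeR adjusted p = 0.00114). The low transcripts *Cldn20* and *Cldn23* rose, by 1.04 (edgeR adjusted p = 0.00266) and 0.73 (edgeR adjusted p = 0.00467). In the 12-month striatum 1 of 21 was called higher, *Cldn20* (1.09, edgeR adjusted p = 0.0121), and 2 lower, *Cldn11* (-0.43, edgeR adjusted p = 6.05e-07) and *Cldn2* (-2.23, edgeR adjusted p = 0.0119), the last from 0.280 ± 0.406 CPM to 0.0605 ± 0.0497 CPM (median of the list -0.16), where 9.44% of all genes were called. In that comparison 3 of 8 markers of the choroid plexus, an epithelium that expresses *Cldn2*, were called lower, with a summed level from 242.9 to 320.8 CPM in LacQ140 against 230.6 to 848.7 CPM in WT + IPTG mice, and their part in the *Cldn2* value was not tested. *Cldn11* is itself 1 of the 8 oligodendrocyte markers, of which 4 were called lower at 6 months, from 9870 to 12400 CPM summed in LacQ140 against 12810 to 16430 CPM in WT + IPTG mice, and 3 lower and 1 higher at 12 months (8695 to 14140 CPM against 11380 to 15210 CPM).

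**Figure D4:**
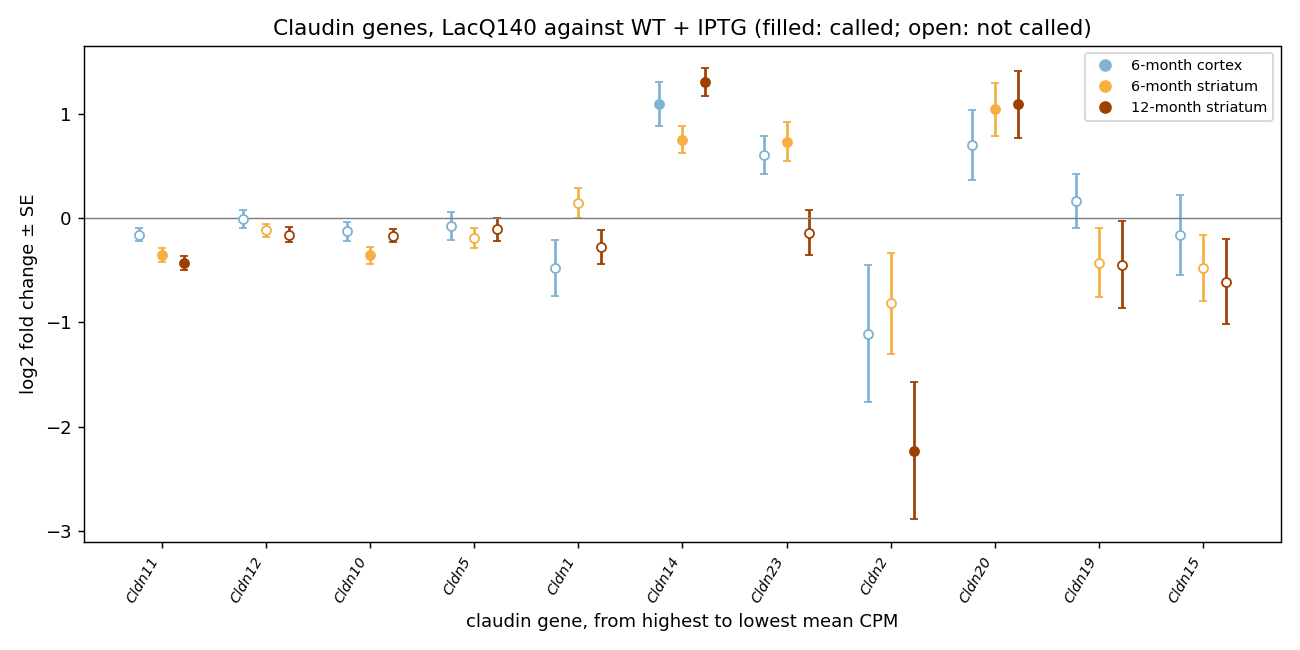
Log2 fold change ± SE (y axis) of LacQ140 against WT + IPTG for *Cldn14* and the other claudins with a mean of at least 0.1 CPM (x axis, from highest to lowest mean), in the 6-month cortex and the 6- and 12-month striatum. Filled points were called and open points were not. *Cldn14* lies at 1.09, 0.75 and 1.30, while the myelin claudin *Cldn11* lies at -0.16, -0.36 and -0.43.

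Of 23 other tight junction genes, all but 1 of those called in striatum were lower in LacQ140 mice. In the 6-month striatum 5 were called lower and 1, *Cgn*, higher (0.32, median of the list -0.006), where 7.93% of all genes were called. The adhesion molecules *Jam2* (-0.39, edgeR adjusted p = 4.92e-06), *F11r* (-0.33, edgeR adjusted p = 4.34e-05) and *Esam* (-0.33, edgeR adjusted p = 9.34e-05) fell, as did *Marveld3* (-0.49) and the scaffold gene *Patj* (-0.58, edgeR adjusted p = 0.0274). *Patj* had been called higher with IPTG in WT mice in the same tissue (0.73, edgeR adjusted p = 0.0409), from 11.2 ± 2.87 CPM to 18.5 ± 10.5 CPM, a call that was lost with DESeq2, with only the groups compared in the fit and with the replicate block. In the 12-month striatum 5 were called lower and none higher (median -0.156), where 9.44% of all genes were called. They were the cingulin-like *Cgnl1* (-0.43, edgeR adjusted p = 1.55e-06), the polarity genes *Pard3* (-0.34) and *Pard6b* (-0.27), *Esam* (-0.32) and occludin, *Ocln* (-0.34, edgeR adjusted p = 6.58e-04). Of 8 endothelial markers 1 was called lower at 6 months (277.6 to 334.2 CPM summed in LacQ140 against 300.4 to 414.5 CPM in WT + IPTG mice) and 4 at 12 months (256.8 to 344.6 CPM against 316.3 to 390.6 CPM). Of 6 pericyte markers 2 were called lower at 6 months (175.4 to 222.1 CPM against 200.1 to 252.4 CPM) and 3 at 12 months (188.0 to 225.9 CPM against 214.4 to 269.1 CPM). The part of either list in these results was not tested. Of the tight junction genes in the 6-month cortex 1 was called higher, *Pard6b* (0.44, edgeR adjusted p = 0.0224), and none lower, where 0.881% of all genes were called. With IPTG in WT mice, *Patj* and *Cldn1* (0.68, edgeR adjusted p = 0.0145) were the genes of either list called in the 6-month striatum, and edgeR called 0 of either list in the 6-month cortex (5 claudins and 3 tight junction genes at an unadjusted p under 0.05) and the 12-month striatum (3 and 7), as did DESeq2. Of all genes 0.584%, 0.609% and 0.218% were called in these 3 comparisons.

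Neighbouring genes, those within 1 Mb on either side, were counted in the same comparisons. In the 6-month cortex 0 of 31 neighbours of *Cldn14* and 0 of 26 neighbours of *Smim3* were called for LacQ140 against WT + IPTG by edgeR, where 0.881% of all genes were called (2 and 3 at an unadjusted p under 0.05, 0 of either by DESeq2). In the 6-month striatum *Hlcs* rose (0.35) and *Cbr3* fell (-0.30) among 33 neighbours of *Cldn14*, and *Ppargc1b* (0.41) and *Slc26a2* (0.28) rose among 27 neighbours of *Smim3*, where 7.93% of all genes were called. In the 12-month striatum, where 9.44% of all genes were called, 3 of 33 neighbours of *Cldn14* and 4 of 26 neighbours of *Smim3* were called. *Cbr3* fell (-0.59, edgeR adjusted p = 6.59e-09) and the low transcripts *Chaf1b* (1.13) and *Sim2* (2.11) rose on the *Cldn14* side, and *Synpo* (-0.33), *Pde6a* (-1.54) and *Iigp1* (-0.70) fell and *Cd74* (0.66) rose on the *Smim3* side. In the 12-month cortex no gene of the 4 lists was called for LacQ140_A, LacQ140_2M or LacQ140_8M against WT or for LacQ140_8M against LacQ140_A, with 22 claudins, 23 tight junction genes and 29 and 26 neighbours tested in each. Over the 4 lists 12, 8, 11 and 16 of 100 genes stood at an unadjusted p under 0.05 in edgeR, and DESeq2 called 0. Over all 34493 genes 6, 31, 13 and 7 were called, and 1997, 1533, 3084 and 4566 stood at an unadjusted p under 0.05.

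The transcripts most like each gene over the 60 libraries of the 12-month cortex were sought among 14675 genes with a mean of at least 1 CPM, by Pearson correlation of log2 CPM, as a description. For *Cldn14* the highest were *Tnni1* (r = 0.66), *Enpp6* (0.65), *Cyp2j12* (0.64), *Evi2a* (0.63) and *Abhd1* (0.63). With group means removed they were 0.49, 0.12, 0.39, 0.64 and -0.25, so that *Enpp6*, a gene of newly forming oligodendrocytes, and *Abhd1* followed *Cldn14* between the groups and not among mice of one group. Lowest were *Htt* itself (-0.64, and -0.54 with group means removed), *Glul*, the glutamine synthetase of astrocytes (-0.63 and -0.58), and *Mfge8* (-0.60 and -0.55). For *Smim3* the highest were *Gm19439* (0.91), *Tsc22d3* (0.84), which encodes the glucocorticoid-induced leucine zipper, *Pop5* (0.82), *Ociad2* (0.82) and *Ifrd1* (0.82), and these stayed at 0.88, 0.73, 0.76, 0.80 and 0.80 with group means removed. Lowest were *Fgd3* (-0.77), *Rdx* (-0.77), encoding radixin, and *Cnp* (-0.76), a myelin enzyme. Most of these correlations were nearer 0 in the 50 libraries of the 6-month cortex. There the *Smim3* values were 0.84 for *Gm19439*, 0.80 for *Tsc22d3*, 0.49 for *Pop5*, 0.46 for *Ociad2* and 0.54 for *Ifrd1*, and -0.14 for *Fgd3*, -0.22 for *Rdx* and -0.58 for *Cnp*. The *Cldn14* values were 0.66 for *Abhd1*, 0.37 for *Tnni1*, 0.19 for *Enpp6*, -0.10 for *Cyp2j12* and 0.23 for *Evi2a*, and -0.60 for *Htt*, -0.26 for *Glul* and -0.17 for *Mfge8*. All libraries of one tissue and age share a batch, and they differ in the length slope described next.

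The 12-month cortex differed from the other tissues and ages in how counts depended on transcript length. The slope of log2 CPM on log2 length over the genes of a library, lower where long transcripts are under-represented, had group means from -0.139 in LacQ140_A to -0.042 in LacQ140 mice there, against 0.35 to 0.51 in the other tissues and ages. With group means removed the slope correlated with *Cldn14* by -0.62 and with *Smim3* by -0.69 in the 12-month cortex (60 libraries), and by -0.26 to -0.47 elsewhere. *Cldn14* and *Smim3* then also rose and fell together among mice of one group (r = 0.53 in the 12-month cortex) although their group differences had opposite signs (r = -0.11 over all 60 libraries). With the slope as a covariate the LacQ140 minus WT + IPTG differences of the 12-month cortex were 1.65 (SE 0.157) for *Cldn14* and -0.63 (SE 0.088) for *Smim3*. In the same fit the LacQ140_8M differences from WT were called, at 0.91 on the log2 scale (SE 0.152, edgeR adjusted p = 1.12e-04) for *Cldn14* and -0.33 (SE 0.087, edgeR adjusted p = 0.0462) for *Smim3*. Beyond this fit, the part of the slope in the results was not tested.

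**Figure D5:**
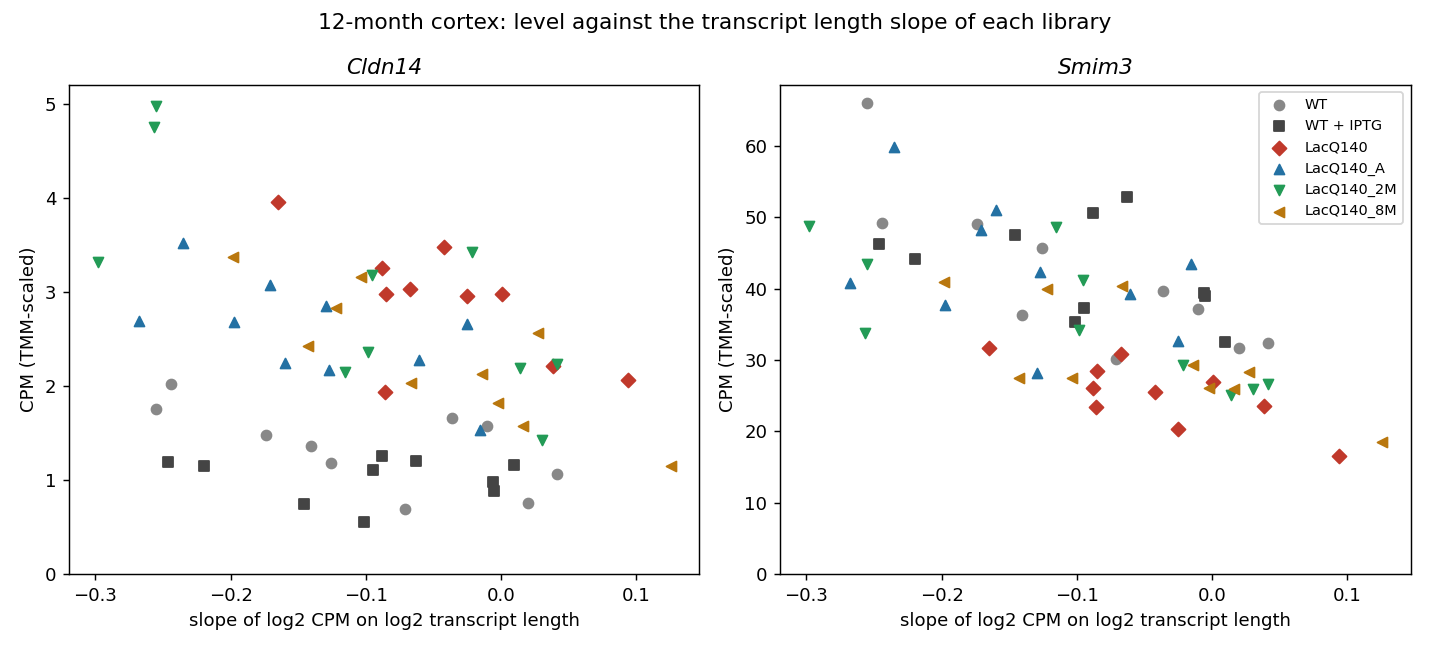
Level of *Cldn14* and *Smim3* (CPM, y axis) against the length slope of each library (x axis) in the 60 libraries of the 12-month cortex, with group shown by colour and shape. Both genes fall as the slope rises within groups (r = -0.62 and -0.69 with group means removed). All LacQ140 libraries lie above all WT + IPTG libraries for *Cldn14* and below them for *Smim3*, in the contrast by which both genes were chosen.

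Between the tissues of one mouse both genes varied together. Over 50 mice at 6 months the cortical and striatal levels correlated by 0.64 for *Cldn14* and 0.77 for *Smim3*, and by 0.32 and 0.63 with group means removed. Over 57 mice at 12 months the values were 0.79 and 0.70, and 0.26 and 0.49 with group means removed. Markers of the pituitary, which is not part of either tissue, were called higher in LacQ140_A than in WT mice at 6 months (4 of 5 in cortex, summed from 2.24 to 115.1 CPM against 1.34 to 4.36 CPM, and 3 of 5 in striatum, from 2.51 to 117.6 CPM against 1.90 to 6.20 CPM), beside *Cldn14* and *Smim3* values that did not pass in those comparisons. Of all genes 0.425% were called in cortex and 0.91% in striatum. DESeq2 called 0 and 2 of the pituitary markers, and the median sums were 4.19 CPM against 2.73 CPM in cortex and 3.47 CPM against 2.95 CPM in striatum, so that a minority of libraries carried the range. The part of these markers was not tested.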

How the data were processed

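RNA of striatum and cortex was sequenced on a NovaSeq machine. The authors deposited expected counts, estimated reads per gene without normalization, in one table per age. The aligner and counting program are not given in the sources used here, and the GRCm38 build is named in the submitters' processing notes. Gene names, positions and lengths were taken from GENCODE vM21, which matched 54495 of 54532 identifiers. Groups, sex and replicates were taken from the labels. Of nonzero values 32.52% were not whole, and counts were rounded. Tests were made with edgeR 4.0.16 in R 4.3.3 (TMM, glmQLFit with the non-legacy setting, then the quasi-likelihood F-test), with all groups of a tissue and age in one fit and every gene with at least 1 count kept. Each SE is the fold change on the log2 scale divided by the root of its F statistic. Tissues were compared with the mouse as a term. The p-values measure the spread between mice.

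*Cldn14* and *Smim3*, the gene lists and the marker lists were chosen with earlier results of these data known. Results for 1 further gene list are not reported here. LacQ140_A against WT outside the 12-month cortex, the IPTG effect in carriers against that in WT, and the 6-month cortex without LacQ140_2M F2 were added after the levels were seen. Named genes are the pair, *Htt*, *Cldn5*, *Cldn10*, *Cldn11*, *Cldn12*, list genes called in a described comparison (the 5 of smallest p where more were called, and *Cgn*, named after its value was seen), and the 5 highest and 3 lowest correlations with each gene. Correlations used log2 CPM with a prior count of 2. No duplicate library was found in 963 pairs within groups (chi-square per degree of freedom at least 6.15, median 33.19). In data simulated for LacQ140_A against WT in the 12-month cortex, on 34493 genes, 61% of 100 genes changed 1.5-fold and 100% of 100 genes changed 2-fold were recovered, and 6 unchanged genes were called. The simulation drew genes independently with the same dispersion for every gene and changed only genes with a mean of at least 1 CPM. It held no difference in length slope between libraries, so that it does not give the recovery in the real libraries. Alternatives were DESeq2 1.42.0, DESeq2's size factors, filterByExpr, sex, the replicate label or the length slope as a term, no fold change bound, only the groups compared and, in the 12-month cortex, leaving out each of 40 libraries. The length slope was computed over genes with a mean of at least 1 CPM.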

Additional observations from a re-analysis of the deposited data

Results flagged for a closer look

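In 2 of the 44 groups examined over both genes, 1 library stood apart from the other 9, where chance would place about 1 in 20 groups. *Cldn14* in LacQ140_2M F2 of the 6-month cortex was 2.075 CPM, and the next library of the group had 1.262 CPM, a gap of 0.531 of the range. Without it LacQ140_2M minus LacQ140 was -0.53 (edgeR adjusted p = 0.26) on the log2 scale, against -0.35 with it. *Smim3* in WT F1 of the 12-month cortex was 66.03 CPM, and the next library had 49.17 CPM, a gap of 0.47 of the range. Without it the *Smim3* differences from WT were 0.12 in LacQ140_A, -0.13 in LacQ140_2M and -0.36 in LacQ140_8M mice on the log2 scale, and none passed, as with all libraries.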

How the results depend on the processing

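Under settings that kept all libraries, 219 values of *Cldn14* and 218 of *Smim3* from tested comparisons stayed on their side of the threshold with their direction, and 5 and 6 did not. The cause was not tested. With only the groups compared in the fit, fewer libraries estimated the spread, and calls were lost for *Cldn14* in LacQ140_2M against WT in the 12-month cortex (1.14, edgeR adjusted p = 0.105) and *Smim3* in LacQ140_A against LacQ140 in the 12-month striatum (0.48). With the length slope as a covariate, LacQ140_8M against WT in the 12-month cortex became called for *Cldn14* (0.91) and *Smim3* (-0.33), as did *Cldn14* in LacQ140_A against WT in the 6-month striatum (0.45) and *Smim3* in LacQ140 against WT + IPTG in the 6-month cortex (-0.50), while both 12-month tissue calls were lost (1.16 and -0.59). In the same fit 3 differences that had not passed changed sign, *Cldn14* in LacQ140_8M against LacQ140_A (0.09), *Smim3* in LacQ140_A against WT in the 12-month cortex (-0.05) and the *Smim3* tissue difference of the IPTG effect (0.11). Leaving out 1 library gave 0.85 to 1.0 for *Cldn14* in LacQ140_A against WT, 0.69 to 0.86 in LacQ140_8M against WT, and, for *Smim3*, -0.05 to 0.12 in LacQ140_A against WT and -0.53 to -0.41 in LacQ140_8M against LacQ140_A. For *Cldn14* in LacQ140_2M against WT the range was 1.03 to 1.23 and the call was kept in 40 of 40 fits.

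Counts over lists moved as follows. Without the fold change bound, LacQ140 against WT + IPTG had 8 tight junction genes (5 with it) and 6 *Cldn14* neighbours (3) in the 12-month striatum, and 4 neighbours of either gene (2) in the 6-month striatum. With filterByExpr 1 claudin was called in that contrast in the 6-month cortex and 1 with IPTG in the 12-month striatum, against 0. The length slope gave 1 claudin in LacQ140_8M against WT, against 0. With only the groups compared 2 *Smim3* neighbours (4) were called in the 12-month striatum, and 0 tight junction genes were called with IPTG in the 6-month striatum, as with DESeq2 (0, against 1). Leaving out libraries gave 0 to 1 claudin, *Cldn14* neighbour and *Smim3* neighbour in LacQ140_8M against LacQ140_A, each 1 without LacQ140_8M F3.

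Samples with the same replicate label were not alike (mean correlation of their deviations 0.077 to 0.1, against 0.056 to 0.141 for other labels, the lowest pair at -0.582), so the label was not taken to pair mice. The replicate block changed no call of either gene (*Cldn14* in LacQ140_A against WT, 12-month cortex, 0.92, edgeR adjusted p = 0.0201). With the replicate block 1 claudin was called in LacQ140 against WT + IPTG in the 6-month cortex (0 without), and 0 tight junction genes with IPTG in the 6-month striatum (1).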
